A study of Mus musculus with 12 samples.

Results

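The genes of mitochondrial fatty acid oxidation were followed in heart ventricles and epididymal white adipose tissue (EWAT) of mice. They are a list of 33 enzymes and carriers written from standard biochemistry, and each was found by its gene symbol among the 23042 genes of the expression tables. The list was not chosen by a measured value, but it was chosen with earlier results of these data known. It runs from activation of the fatty acid (5 genes) through the carnitine shuttle (5), the acyl-CoA dehydrogenases (8), the hydratases, hydroxyacyl-CoA dehydrogenases and isomerases (7) and the thiolases (2) to electron transfer (3) and the acyl-CoA thioesterases (3).

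RNA of WT mice and of MED13cTg mice, which carry a cardiac transgene for MED13, a subunit of the Mediator complex of transcription, was sequenced from both tissues, with n = 3 libraries per genotype and tissue and 12 in all. The mice were male C57BL/6 littermates, 6 weeks old by the labels, kept on normal chow, fed ad libitum and sampled late in the afternoon, and the 2 genotypes shared all of this. WT mice carried no transgene. The promoter that drives the transgene and the number of founder lines are not given in the sources used here, and whether a ventricle library and an EWAT library with the same number came from 1 mouse is not given either. Values are FPKM, fragment counts scaled by transcript length and by the mapped fragments of the library. Absolute depth is unknown from them; relative to WT replicate 1 of the tissue, the other libraries held 0.908 to 1.02 times as many fragments in ventricles and 0.712 to 0.933 in EWAT. The question was how cardiac MED13 relates to fatty acid oxidation genes in the heart and in a fat depot. Med13 RNA was raised in MED13cTg ventricles and overlapped with WT in EWAT.

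A long-chain fatty acid is first joined to coenzyme A by an acyl-CoA synthetase and is then passed across the inner mitochondrial membrane as an acylcarnitine. In the matrix, each turn of β-oxidation is a dehydrogenation, a hydration, another dehydrogenation and a thiolytic cleavage that releases acetyl-CoA, and the electrons of the first dehydrogenation reach the respiratory chain through the electron transfer flavoprotein. The heart draws most of its ATP from this pathway, whereas white fat mainly stores and releases fatty acids.

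Members that act together can be neighbours in the genome, and their control regions can be read beside the data. RefSeq promoter windows of build GRCm38.p6 were found for 27 of the 33 members, in 30 windows, each the 250 bases before a gene's start; the expression tables use build mm9, and coordinates of the 2 builds were not mixed. Hadha and Hadhb encode the α and β subunits of the mitochondrial trifunctional protein, which carries out the last steps of β-oxidation on long chains. In mm9 the tables place them side by side, Hadha at chr5:30430123-30481520 and Hadhb at chr5:30481861-30511123. They are transcribed away from each other, and the 272 bases between their RefSeq starts (GRCm38.p6 chr5:30154981-30155252, plus strand) are shown because 1 stretch lies upstream of both genes. Capitals mark GC boxes (GGGCGG).
Hadha-Hadhb: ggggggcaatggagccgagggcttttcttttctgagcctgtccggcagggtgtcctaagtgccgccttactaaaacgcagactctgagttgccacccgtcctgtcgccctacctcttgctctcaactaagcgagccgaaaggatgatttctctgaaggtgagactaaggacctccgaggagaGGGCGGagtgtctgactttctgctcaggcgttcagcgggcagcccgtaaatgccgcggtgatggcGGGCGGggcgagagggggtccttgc

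GC boxes were in 21 of the 30 member windows, or 70%, and in 32.7% of all 32851 windows. The windows of Hadha and Hadhb overlap, so that these are not 30 separate sequences. The hexamer AGGTCA, a core site of nuclear receptors, searched on both strands, was in 5 of the 30 member windows, or 16.7%, and in 14% of all windows. The 5 belonged to Acadm, Acadvl, Acsl6, Cpt1a and Echs1. A direct repeat, AGGTCA followed after any 1 base by AGGTCA, was in none of the 30 and in 0.0335% of all windows, and the longer element TCAAGGTCA, which contains the hexamer, was in 1 of the 30, that of Acsl6, and in 0.387% of all. The windows of Acsl6 (chr11:54303574-54303823, plus strand) and of Echs1 (chr7:140116422-140116671, minus strand), both GRCm38.p6, are shown because these members had unadjusted p values below 0.05 in ventricles. Each is read in the direction of its gene, with the hexamer in capitals (TGACCT is its other strand).
Acsl6: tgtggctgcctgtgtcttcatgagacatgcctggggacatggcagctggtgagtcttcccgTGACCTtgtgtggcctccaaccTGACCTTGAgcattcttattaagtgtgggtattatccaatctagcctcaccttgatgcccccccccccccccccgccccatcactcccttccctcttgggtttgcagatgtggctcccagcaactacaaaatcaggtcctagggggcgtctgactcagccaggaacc
Echs1: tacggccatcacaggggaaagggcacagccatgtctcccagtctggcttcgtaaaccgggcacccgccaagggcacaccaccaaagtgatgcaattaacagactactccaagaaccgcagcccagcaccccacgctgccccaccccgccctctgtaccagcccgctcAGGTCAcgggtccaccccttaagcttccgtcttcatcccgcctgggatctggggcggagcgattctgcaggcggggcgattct
In Acsl6 the second run of capitals is the longer element on the other strand. A match is a description of these letters, not evidence that a factor binds there.

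In WT mice most members stood at a higher level in ventricle than in EWAT libraries. The 2 tissues come from tables that were normalized separately, so that these levels are given as a description. The WT EWAT libraries also held much RNA of epididymis genes, such as Gpx5 at 27238 and Lcn8 at 22688 FPKM on average beside the adipocyte gene Fabp4 at 15781 FPKM, so that EWAT levels are those of the dissected tissue and not of fat cells alone. For 27 of the 33 members every WT ventricle library was above every WT EWAT library, as it was for 36.5% of the 11924 genes that averaged 1 FPKM or more in both tissues. For 5 members every WT EWAT library was above every WT ventricle library, against 36.7% of all these genes, and 1, Acsl1, overlapped. The ratio of the WT means, ventricles over EWAT, had a median of 4.90 over the members.

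The carnitine palmitoyltransferases showed the tissue difference most plainly. Cpt1b, the muscle form of the enzyme that commits a fatty acid to import, stood at 543 ± 81.7 FPKM (SD, n = 3) in WT ventricles and 23.9 ± 4.30 FPKM in WT EWAT, a ratio of 22.7. These are values of an entry that joins Cpt1b with Chkb and BC090627, and the part of each gene is unknown. Cpt1a, the form of liver and many other tissues, was the other way round, at 30.6 ± 3.30 and 62.7 ± 2.11 FPKM; in the 2 MED13cTg EWAT libraries with less epididymis RNA it was lower, at 26.9 and 35.8 FPKM. The other 4 members with higher levels in EWAT were the synthetases Acsl3, Acsl4 and Acsl5 and the dehydrogenase Acad10. Acsl3 had the lowest ratio, 0.252, at 3.62 ± 0.527 FPKM in ventricles and 14.3 ± 1.40 FPKM in EWAT. Acsl1, the main synthetase of heart and fat, was at 325 ± 66.5 and 286 ± 88.9 FPKM, a difference within the spread of the libraries.

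Ech1, an isomerase for fatty acids with double bonds, had the highest WT mean in both tissues, at 2852 ± 152 FPKM in ventricles and 408 ± 82.7 FPKM in EWAT. In EWAT its SD overlapped that of Acsl1, which was above it in WT replicate 2, at 384 against 335 FPKM. Etfb, the β subunit of the electron transfer flavoprotein, followed in ventricles at 1464 ± 119 FPKM, then Acaa2, the matrix thiolase, at 1390 ± 303 FPKM and Hadhb at 1287 ± 128 FPKM. The SDs of Etfb, Acaa2 and Hadhb overlap. In EWAT the members after Ech1 were Acsl1, Etfb at 281 ± 58.8 FPKM and Acaa2 at 262 ± 51.4 FPKM, within each other's SD. The lowest members were Acsl3 in ventricles and Acsl6 in EWAT, the latter at 0.873 ± 0.318 FPKM.

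**Figure D1:**
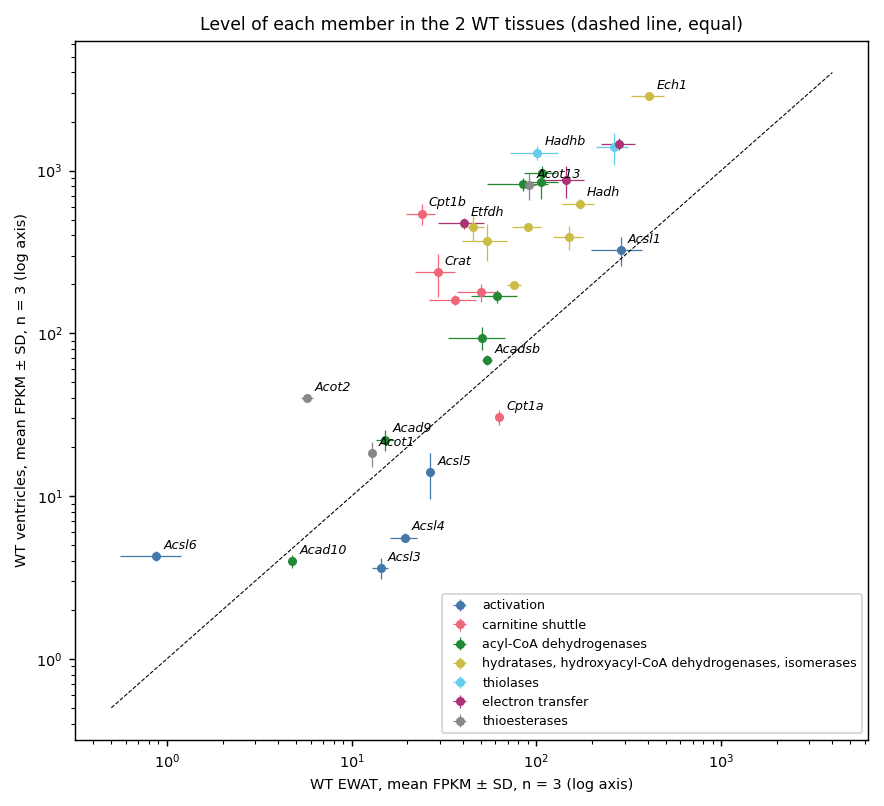
Mean FPKM of each member in WT EWAT (horizontal, log axis) and WT ventricles (vertical, log axis), with SD over n = 3 libraries as bars, coloured by step; the dashed line marks equal levels. Most members lie above the line, Cpt1b (an entry joined with Chkb and BC090627) farthest with a ratio of 22.7. Acsl3, Acsl4, Acsl5, Cpt1a and Acad10 lie below it.

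In ventricles, fatty acid oxidation genes were on average slightly lower in MED13cTg than in WT mice, and no single gene passed the test. The log2 fold change, MED13cTg minus WT on log2(FPKM + 1), was below 0 for 29 of the 33 members and above 0 for 4, where 53.3% of the 12576 genes tested were below 0. The members' median was -0.18 and that of all genes -0.014. No member passed an adjusted p of 0.05 in limma with Benjamini-Hochberg adjustment, where 0.0557% of all genes did; the members' adjusted p ran from 0.896 to 0.991. At an unadjusted p under 0.05 there were 3 members, Acsl6, Acad11 and Echs1, where 4.72% of all genes were below it. The transgene was visible in the same libraries, with Med13 at 13.1, 10.6 and 11.5 FPKM in WT against 263, 181 and 204 FPKM in MED13cTg ventricles.

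The genotypes did not overlap in 5 members, Acsl6, Acad11, Hadh, Eci2 and Acot2, with MED13cTg lower in each, as in 5.85% of all genes. None had all MED13cTg libraries above WT, as 3.46% of all genes did. High-level genes as a whole leaned the same way: of those averaging 100 FPKM or more, a limit chosen after the values were seen, 68.7% were lower in MED13cTg, and so were 22 of 22 members at that level. Without overlap and lower in MED13cTg were 10.5% of these genes and 2 of the 22 members. The MED13cTg libraries were not alike. MED13cTg replicate 1 was below every WT library in 21 members, replicate 2 in 12 and replicate 3 in 18, where the shares of all genes were 27.9%, 24.6% and 26.6%.

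Among the synthetases, Acsl6, which prefers long polyunsaturated fatty acids and is best known from brain, had the largest negative fold change of all members in ventricles. Acsl6 was at 3.96, 4.48 and 4.41 FPKM in WT against 3.02, 2.64 and 2.96 FPKM in MED13cTg ventricles, without overlap (log2 fold change -0.45, SE 0.11, adjusted p = 0.896 in limma). Its level was about that of Acad10 and Acsl3, the lowest of the pathway. Acsl1, which carries most of the heart's acyl-CoA synthetase activity, was at 253, 337 and 384 FPKM in WT against 232, 258 and 276 FPKM in MED13cTg ventricles. WT replicate 1 lay among the MED13cTg values, and the fold change was -0.33 with an SE of 0.18. Acsl5, a synthetase of mitochondria and endoplasmic reticulum, was at 19.1, 11.99 and 10.9 FPKM in WT against 16.4, 18.8 and 12.6 FPKM in MED13cTg ventricles, the highest fold change of the members (0.20, SE 0.23). The groups overlapped throughout. Acsl3 and Acsl4 lay between 3.13 and 5.86 FPKM in the 6 libraries, with overlapping groups.

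In the carnitine shuttle all 5 genes overlapped between the genotypes. Cpt1b was at 637, 506 and 487 FPKM in WT against 609, 496 and 482 FPKM in MED13cTg ventricles, and in each genotype replicate 1 was the highest (log2 fold change -0.04, SE 0.17). Its entry joins it with Chkb and BC090627, and the value is uncertain for that reason. Cpt1a was at 30.5, 27.4 and 34.0 FPKM in WT against 33.4, 36.5 and 31.3 FPKM in MED13cTg ventricles (0.14, SE 0.12). Cpt2, which turns the acylcarnitine back into acyl-CoA on the matrix side, was at 205, 161 and 170 FPKM in WT against 204, 150 and 145 FPKM in MED13cTg ventricles, with replicate 1 the highest of either genotype (-0.11, SE 0.18). The carrier Slc25a20, which exchanges acylcarnitine for carnitine, and Crat, the short-chain carnitine acetyltransferase, overlapped between genotypes at 136 to 174 and 162 to 298 FPKM.

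Of the 8 acyl-CoA dehydrogenases, which differ in the chain length they accept, 7 had a negative fold change. Acad11, a dehydrogenase of long and very long chains, was at 76.6, 101 and 105 FPKM in WT against 62.9, 68.0 and 75.9 FPKM in MED13cTg ventricles. The closest values, those of WT replicate 1 and MED13cTg replicate 3, nearly met (-0.43, SE 0.16, adjusted p = 0.966 in limma). Acadm, the medium-chain enzyme, was at 650, 889 and 998 FPKM in WT against 644, 605 and 740 FPKM in MED13cTg ventricles (-0.33, SE 0.20). Acadvl, the very-long-chain enzyme of the inner membrane, was at 1078, 901 and 927 FPKM in WT against 715, 1039 and 792 FPKM in MED13cTg ventricles (-0.20, SE 0.18). In both genes 1 library crossed over, WT replicate 1 for Acadm and MED13cTg replicate 2 for Acadvl. Acad10, at 3.67 to 4.72 FPKM over all 6 libraries, was the exception among the dehydrogenases (0.10, SE 0.11). Acadl, Acads, Acadsb and Acad9, for long, short and branched short chains and, for Acad9, also complex I assembly, overlapped between genotypes, with WT means of 824, 169, 68.7 and 22.2 FPKM and MED13cTg means of 738, 141, 59.4 and 18.4 FPKM.

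The 7 hydratases, hydroxyacyl-CoA dehydrogenases and isomerases all had negative fold changes, from -0.40 to -0.10. Echs1, the short-chain enoyl-CoA hydratase, was at 318, 410 and 443 FPKM in WT against 270, 283 and 326 FPKM in MED13cTg ventricles, with WT replicate 1 below MED13cTg replicate 3 (-0.40, SE 0.17, adjusted p = 0.966 in limma). Hadh, the short-chain hydroxyacyl-CoA dehydrogenase, was at 577, 643 and 657 FPKM in WT against 479, 564 and 524 FPKM in MED13cTg ventricles, without overlap (-0.26, SE 0.14). Eci2, an enoyl-CoA isomerase, was at 198, 194 and 203 FPKM in WT against 154, 186 and 178 FPKM in MED13cTg ventricles, also without overlap (-0.20, SE 0.12). In both genes the gap between the nearest libraries of the 2 genotypes was small. Ech1, Eci1 and Decr1, which prepare double bonds for the cycle, overlapped, with MED13cTg means of 2645, 412 and 343 FPKM against WT means of 2852, 450 and 371 FPKM.

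The 2 subunits of the trifunctional protein were lower on average in MED13cTg ventricles, and neither separated the genotypes. Hadha was at 361, 471 and 522 FPKM in WT against 293, 356 and 414 FPKM in MED13cTg ventricles (-0.35, SE 0.20). Hadhb was at 1411, 1155 and 1296 FPKM in WT against 924, 1173 and 1037 FPKM in MED13cTg ventricles (-0.30, SE 0.16). Hadhb shares 61.5% of its 50-base windows with the predicted gene Gm13910, and Cpt1b and Etfb likewise share 93% and 67.3% of theirs with Gm44502 and Gm45233, so that their levels depend on how shared fragments were counted. Acaa2, the thiolase for medium and long chains, was at 1736, 1171 and 1263 FPKM in WT against 1012, 2103 and 1049 FPKM in MED13cTg ventricles. MED13cTg replicate 2 was the highest of the 6 libraries and replicate 1 the lowest (-0.07, SE 0.32).

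Electron transfer was lower in all 3 genes on average. Etfdh, the oxidoreductase that hands the electrons to ubiquinone, was at 450, 459 and 519 FPKM in WT against 366, 467 and 376 FPKM in MED13cTg ventricles, MED13cTg replicate 2 lying within the WT range (-0.25, SE 0.15). Etfa and Etfb, the subunits of the flavoprotein, overlapped at 661 to 1039 and 1154 to 1586 FPKM. Among the thioesterases, which free fatty acids from coenzyme A, Acot2 of the mitochondrial matrix had close values, at 39.6, 40.0 and 40.3 FPKM in WT against 34.5, 37.4 and 35.5 FPKM in MED13cTg ventricles (-0.16, SE 0.09). Acot1, its cytosolic neighbour, was at 14.7, 19.3 and 21.0 FPKM in WT against 15.9, 15.9 and 21.3 FPKM in MED13cTg ventricles (-0.05, SE 0.17). Acot1 shares 23.7% of its 50-base windows with Acot2 and Acot2 24.5% with Acot1, and their values are uncertain to that extent. Acot13 overlapped at 614 to 1022 FPKM.

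**Figure D2:**
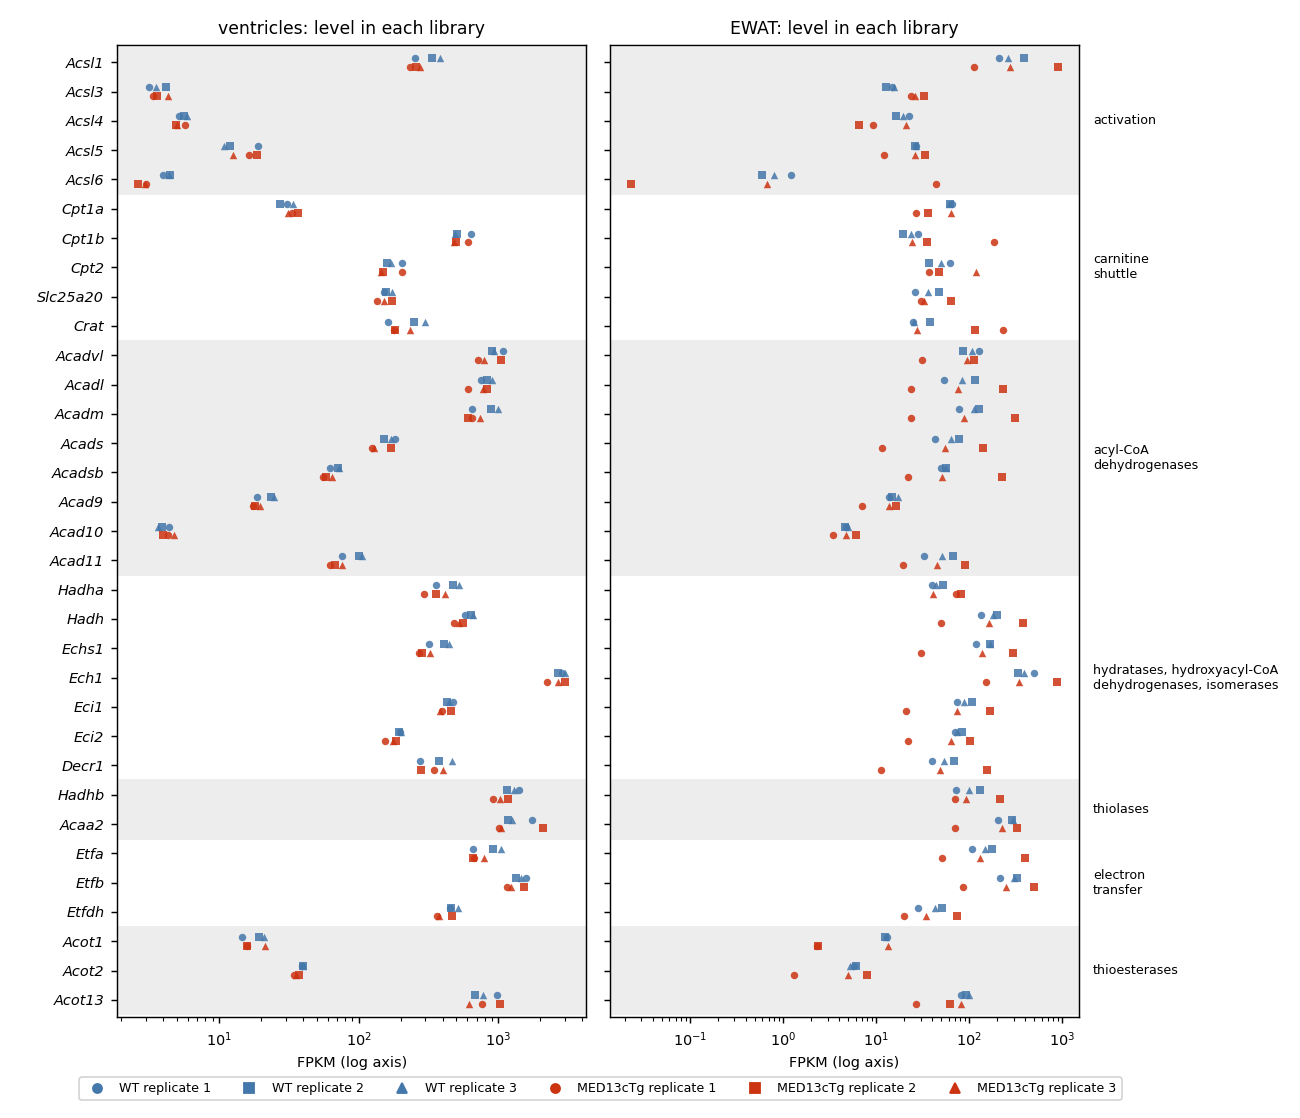
FPKM of each member (rows, grouped by step) in every library of ventricles (left) and EWAT (right), on log axes that differ in range; blue symbols are WT and red symbols MED13cTg, with the shape giving the replicate number. In ventricles the genotypes lie close together, and in EWAT MED13cTg replicates 1 and 2 lie on opposite sides of the WT libraries for most members.

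Averaged over all 33 members on log2(FPKM + 1), the WT ventricle libraries lay at -0.06, -0.02 and 0.08 around the WT mean, and the MED13cTg libraries at -0.25, -0.10 and -0.15. By step, with no test between steps, the MED13cTg libraries were at -0.35, -0.18 and -0.13 for the hydratase group, -0.34, -0.16 and -0.16 for the acyl-CoA dehydrogenases and -0.35, -0.11 and -0.23 for electron transfer. They were at -0.13, -0.11 and -0.13 for activation, -0.15, 0.03 and -0.11 for the thioesterases and -0.02, -0.06 and -0.10 for the carnitine shuttle. The WT libraries ran from -0.06 to 0.08 for the shuttle and from -0.05 to 0.06 for the thioesterases. MED13cTg replicate 1 for the former and replicate 2 for the latter lay inside these ranges. For the hydratase group the WT libraries ran from -0.15 to 0.14, and MED13cTg replicate 3 lay inside. For electron transfer the lowest WT library, at -0.1098, nearly met MED13cTg replicate 2, at -0.1106. The WT libraries ran from -0.09 to 0.08 for the dehydrogenases and from -0.04 to 0.03 for activation, above the MED13cTg libraries. In summed FPKM activation overlapped, at 284, 363 and 409 in WT against 260, 288 and 301 in MED13cTg ventricles. The summed dehydrogenases did not overlap. The thiolases were at -0.45, 0.24 and -0.35 in MED13cTg and 0.24, -0.19 and -0.05 in WT libraries, an overlap. In summed FPKM, all members together gave 16221, 15437 and 16927 in WT and 12779, 16248 and 14025 in MED13cTg ventricles, where MED13cTg replicate 2 lay within the WT range.

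By overall expression, WT replicate 1 and MED13cTg replicates 1 and 2 resembled each other, and so did WT replicates 2 and 3 and MED13cTg replicate 3, with rank correlations of 0.944 to 0.969 among all 6 ventricle libraries. Within the first of these clusters 25 members were lower in MED13cTg (median -0.14). Within the second 28 were lower (median -0.19), and 23 were lower in both. Each cluster holds 1 library of 1 genotype. The shares of all genes within each cluster were not computed. With the cluster as a term, 27 of the 33 members and 57.9% of all genes were lower. Markers of other heart cells also varied. The summed FPKM of 6 atrial myocyte genes, all found and none at 0, was 452 to 747 in WT and 998 to 2450 in MED13cTg ventricles, with 1 of the 6 higher in every MED13cTg library. That gene was Nppa, the atrial natriuretic peptide, at 564, 408 and 368 FPKM in WT against 892, 1773 and 1088 FPKM in MED13cTg ventricles. The other 5 summed to 183, 88.3 and 84.3 FPKM in WT against 105, 677 and 76.8 FPKM in MED13cTg ventricles, so that only MED13cTg replicate 2 stood above WT. Of 7 ventricular myocyte genes the sum was 62954 to 70152 in WT and 62671 to 91273 in MED13cTg ventricles, with Myl2, the ventricular light chain, at 19184 to 36273 FPKM throughout. Of these 7, Ryr2, the calcium release channel, was lower in every MED13cTg library, at 466, 473 and 365 FPKM in WT against 330, 354 and 284 FPKM in MED13cTg ventricles, and Actc1, cardiac actin, was higher in every one, with means of 7619 and 8671 FPKM. The part of any of these in the member values was not tested. In tissue RNA, fewer cells of a type and less RNA per cell cannot be told apart.

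Another 44 genes supply, regulate or neighbour the pathway, such as the PPAR receptors, enzymes of malonyl-CoA control and carnitine supply. Of these, 40 were tested in ventricles, 30 lower and 10 higher in MED13cTg (median -0.17), where 53.3% of all genes were lower, and none passed an adjusted p of 0.05 in limma. At an unadjusted p under 0.05 there were 4, against 4.72% of all genes. The genotypes did not overlap in 6, with MED13cTg lower in 4 (5.85% of all genes) and higher in 2 (3.46%). Ppargc1a, a coactivator of mitochondrial genes, was at 63.3, 55.5 and 44.6 FPKM in WT against 32.95, 30.6 and 47.4 FPKM in MED13cTg ventricles (-0.56, SE 0.20), MED13cTg replicate 3 lying above WT replicate 3. Gcdh, the glutaryl-CoA dehydrogenase, was at 53.6, 52.5 and 56.8 FPKM in WT against 38.7, 46.1 and 43.8 FPKM in MED13cTg (-0.34, SE 0.11). Hsd17b10, a short-branched-chain hydroxyacyl-CoA dehydrogenase, was at 208, 218 and 225 FPKM in WT against 161, 187 and 181 FPKM in MED13cTg (-0.30, SE 0.12). Neither overlapped. Aldh9a1, an aldehyde dehydrogenase of carnitine synthesis, went the other way without overlap, at 48.6, 46.0 and 46.9 FPKM in WT against 57.5, 67.2 and 62.5 FPKM in MED13cTg ventricles (0.39, SE 0.11). Esrra and Cbr4, lower, and Fabp3, higher, were the others without overlap, named here after their values were seen.

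**Figure D3:**
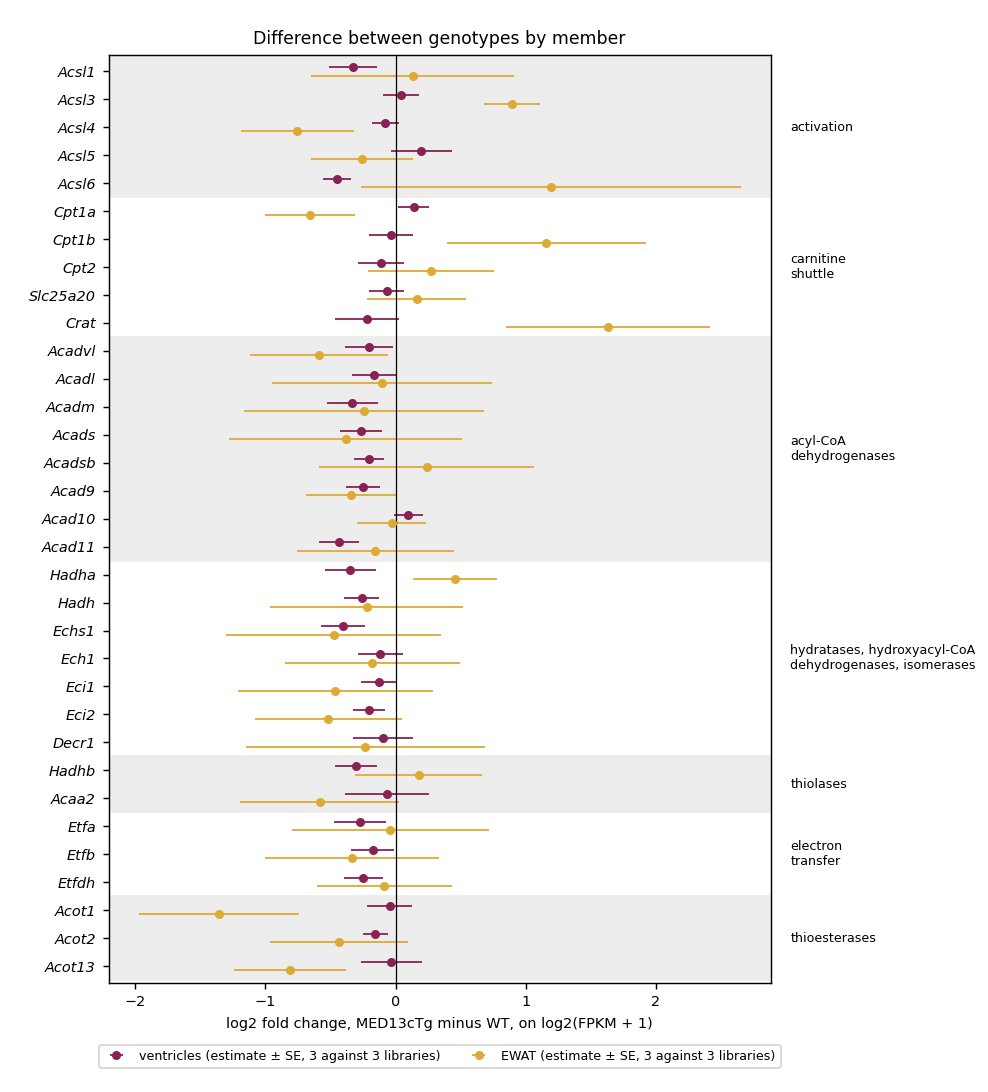
Log2 fold change (MED13cTg minus WT on log2(FPKM + 1), limma estimate ± SE, 3 against 3 libraries) of each member in ventricles (purple) and EWAT (yellow), grouped by step. In ventricles 29 of 33 estimates are below 0 and none is beyond -0.45, whereas EWAT estimates run from -1.36 to 1.63 with wider SEs.

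In EWAT most members overlapped between the genotypes, and the 3 MED13cTg libraries stood far from one another. Rank correlations across genes between MED13cTg replicate 1 and the other libraries were 0.351 to 0.494, and those of replicate 2 were 0.351 to 0.854, against 0.958 to 0.973 among WT libraries and 0.967 to 0.970 between them and MED13cTg replicate 3. Adipocyte markers also differed widely between these libraries. The summed FPKM of 13 adipocyte genes, all found and none at 0 in all libraries, was 13744, 32644 and 22387 in WT and 1445, 81721 and 17658 in MED13cTg EWAT. For 18 epididymis genes the sum was 86592, 82018 and 105797 FPKM in WT against 13371, 250 and 82840 FPKM in MED13cTg EWAT, and for 7 genes of testis germ cells 198, 218 and 273 FPKM in WT against 13000, 5.67 and 327 FPKM in MED13cTg EWAT. All 18 and all 7 were found, and none was at 0 in all libraries. Med13 was at 9.43 to 10.9 FPKM in WT against 7.84 to 11.03 FPKM in MED13cTg EWAT.

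Of the 33 members, 23 had a negative and 10 a positive log2 fold change in EWAT, where 49.3% of the 14942 genes tested were negative, and the median was -0.22 against 0.01 for all genes. Of genes averaging 100 FPKM or more, 80.3% were lower, as were 7 of 9 members at that level. No member passed an adjusted p of 0.05 in limma with Benjamini-Hochberg adjustment, where 0.0134% of all genes did, and the adjusted p ran from 0.738 to 0.984. With an unadjusted p under 0.05 there was 1 member, Acsl3, where 1.26% of all genes were below it. These figures rest on MED13cTg replicates 1 and 2. Without replicate 1, 6 of the 32 members then tested were lower (median 0.35), against 52.9% of all genes. Without replicate 2, 27 of 33 were lower (median -0.68), against 52.4%. Without both, 25 of 32 were lower (median -0.11), against 56.6% of all genes, and none passed the adjusted threshold; MED13cTg was then 1 library, assumed to vary as the WT libraries did.

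The 2 outlying libraries lay on opposite sides for most of the pathway. MED13cTg replicate 1 was the lowest of the 6 EWAT libraries in 25 members, against 37.2% of all genes, and replicate 2 was the highest in 23, against 26.2%. Both held in 20 members, where they held for 19.7% of all genes. MED13cTg replicate 3 was within the range of the WT libraries in 25 members, below it in 5 and above it in 3, while 44.2% of all genes were outside that range. Averaged over all members, the MED13cTg libraries lay at -0.85, 0.62 and -0.04 around the WT mean, and the WT libraries at -0.16, 0.12 and 0.04. The adipocyte marker sum ran in the same order over the 6 libraries, lowest in MED13cTg replicate 1 and highest in replicate 2. So did the sums of 4 endothelial genes, from 9.80 to 230 FPKM, and of 4 macrophage genes, from 53.3 to 324 FPKM. The sum of 5 fibroblast genes did not, with MED13cTg replicate 3, at 1176 FPKM, above every WT library. That of 6 brown adipocyte genes was lowest in WT replicate 1, at 46.4 FPKM against 47.0 FPKM in MED13cTg replicate 1. The other marker lists did not follow the order either. The part of any of these sums in the member values was not tested.

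Acadm showed the common pattern, at 77.6, 126 and 113 FPKM in WT against 23.5, 312 and 88.5 FPKM in MED13cTg EWAT (log2 fold change -0.24, SE 0.92). MED13cTg replicate 3 was among the WT libraries. Acadvl was at 127, 84.8 and 108 FPKM in WT against 31.2, 114 and 94.0 FPKM in MED13cTg EWAT (-0.59, SE 0.53). Only replicate 1 was outside the WT range for it. For Acadsb, which oxidises branched short chains, the WT libraries were close together at 50.03 to 56.6 FPKM and the MED13cTg libraries were at 22.1, 227 and 50.9 FPKM. Acads lay outside the WT range in the same 2 libraries, at 11.4 and 142 FPKM against 43.1 to 76.9 FPKM.

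Acsl1 was at 211, 384 and 263 FPKM in WT against 112, 893 and 278 FPKM in MED13cTg EWAT (0.13, SE 0.78), the same order again. Acaa2 was at 203, 290 and 294 FPKM in WT against 69.7, 323 and 227 FPKM in MED13cTg EWAT (-0.58, SE 0.61). Etfdh was at 28.2, 50.5 and 42.7 FPKM in WT against 19.8, 73.5 and 34.4 FPKM in MED13cTg EWAT (-0.09, SE 0.52). In all of these, replicate 1 was lowest and replicate 2 highest. Echs1 was at 30.1 and 293 FPKM in these 2 libraries against 118 to 168 FPKM in WT. Hadh was at 49.6 and 376 FPKM against 135 to 201 FPKM. Both were alike in this, as were Acadl, Ech1, Eci1, Eci2, Decr1, Etfa and Etfb.

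The trifunctional subunits departed from each other in MED13cTg replicate 1. Hadha was at 40.1, 52.6 and 44.2 FPKM in WT against 72.4, 82.0 and 41.1 FPKM in MED13cTg EWAT, above every WT library in both outlying replicates (0.45, SE 0.32). Hadhb was at 72.4, 131 and 99.8 FPKM in WT against 69.6, 214 and 92.00 FPKM in MED13cTg EWAT (0.18, SE 0.49). Replicate 1 was thus the lowest library for Hadhb and the second highest for Hadha.

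Acsl6, Cpt1b and Crat were the 3 members highest in MED13cTg replicate 1. Acsl6 was at 1.22, 0.594 and 0.806 FPKM in WT against 43.7, 0.0232 and 0.675 FPKM in MED13cTg EWAT (1.19, SE 1.46), and it passed the filter on low values through that 1 library. Cpt1b, in its entry joined with Chkb and BC090627, was at 28.2, 19.6 and 23.9 FPKM in WT against 183, 35.0 and 24.3 FPKM in MED13cTg EWAT (1.16, SE 0.76). Crat was at 24.7, 37.4 and 25.4 FPKM in WT against 233, 117 and 27.3 FPKM in MED13cTg EWAT, the largest fold change of the members (1.63, SE 0.78, adjusted p = 0.738 in limma). In each of the 3 genes MED13cTg replicate 3 was among the WT libraries. The library in which they were high is also the one with 13000 FPKM in the 7 germ cell genes, among them Prm1, a protamine of sperm, at 3355 FPKM against 52.2 to 62.2 FPKM in WT. Crat and Cpt1b were also above every WT library in MED13cTg replicate 2, at 117 and 35.0 FPKM, where the germ cell sum was 5.67 FPKM. Whether the germ cell RNA accounts for the levels of the 3 members was not tested.

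Acsl3, an acyl-CoA synthetase of the endoplasmic reticulum and lipid droplets, was the member in which all 3 MED13cTg libraries were above all WT libraries, which held for 4.89% of all genes. It was at 14.8, 12.8 and 15.5 FPKM in WT against 23.8, 32.7 and 26.3 FPKM in MED13cTg EWAT (0.89, SE 0.21, adjusted p = 0.738 in limma), and the 3 MED13cTg values included replicate 3. Its entry joins it with Utp14b, and 4.05% of its 50-base windows are shared with that gene. Without MED13cTg replicates 1 and 2 the difference was 0.84 (SE 0.15), from 1 library. Acot13, a thioesterase bound to mitochondria, was the member with all MED13cTg libraries below WT, which held for 7.8% of all genes, at 82.6, 91.6 and 99.6 FPKM in WT against 27.01, 62.1 and 80.8 FPKM in MED13cTg EWAT (-0.81, SE 0.43, adjusted p = 0.738 in limma). MED13cTg replicate 3 was just under the lowest WT library.

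Acot1, Acsl4 and Cpt1a were low in both outlying libraries, unlike most of the list. Acot1 was at 13.2, 12.4 and 12.9 FPKM in WT against 2.29, 2.35 and 13.3 FPKM in MED13cTg EWAT, the most negative fold change (-1.36, SE 0.62). Acsl4, which activates arachidonic acid, was at 22.7, 16.2 and 19.2 FPKM in WT against 9.32, 6.57 and 21.0 FPKM in MED13cTg EWAT (-0.75, SE 0.43). Cpt1a was at 65.1, 61.8 and 61.2 FPKM in WT against 26.9, 35.8 and 63.2 FPKM in MED13cTg EWAT (-0.66, SE 0.34). In all 3 the WT libraries and MED13cTg replicate 3 were close together, and the epididymis marker sum was likewise low in MED13cTg replicates 1 and 2, at 13371 and 250 FPKM; its part was not tested. Acot2, next to Acot1 in the genome, was instead at 5.81, 6.14 and 5.27 FPKM in WT against 1.31, 7.96 and 4.99 FPKM in MED13cTg EWAT (-0.43, SE 0.53).

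Cpt2 was set apart by MED13cTg replicate 3, at 62.8, 37.0 and 49.95 FPKM in WT against 37.4, 47.2 and 117 FPKM in MED13cTg EWAT (0.28, SE 0.48). In the other 4 shuttle genes that library lay within the WT range. Slc25a20 overlapped at 26.4 to 63.6 FPKM, and Acsl5, Acad9, Acad10 and Acad11 were lowest in MED13cTg replicate 1, with overlap between genotypes in each.

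**Figure D4:**
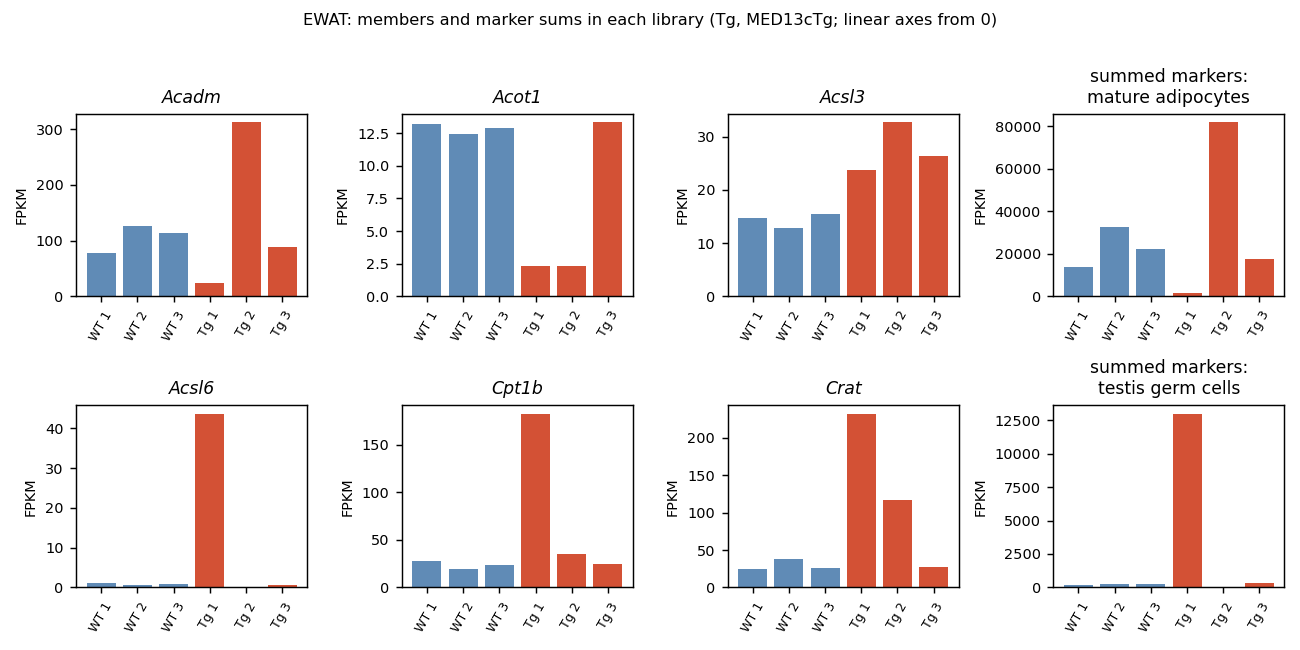
FPKM in each EWAT library (WT 1 to 3 in blue, Tg 1 to 3, the MED13cTg replicates, in red; linear axes from 0) of Acadm, Acot1, Acsl3, Acsl6, Cpt1b and Crat, with the summed FPKM of 13 adipocyte and 7 testis germ cell markers. Acadm follows the adipocyte sum, Acsl6, Cpt1b and Crat are highest in Tg 1 where the germ cell sum is 13000 FPKM, Acot1 is low in Tg 1 and Tg 2, and Acsl3 is above WT in all 3. Cpt1b and Crat are also above WT in Tg 2.

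By step, the mean over members in EWAT was lowest in MED13cTg replicate 1 for the thioesterases (-1.78), the hydratase group (-1.53) and the dehydrogenases (-1.47), and it was above WT in that library for the carnitine shuttle (0.82). For activation it was 0.39 in that library with Acsl6 and -0.66 over the 4 other synthetases. In MED13cTg replicate 2 it was above WT for electron transfer (1.07), the hydratase group (0.99) and the dehydrogenases (0.98) and below WT for the thioesterases (-0.73). In replicate 3 the steps lay between -0.16 and 0.22. In replicate 1 the members above every WT library in the first 2 steps were Acsl3 and Acsl6 for activation and Cpt1b and Crat for the shuttle.

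**Figure D5:**
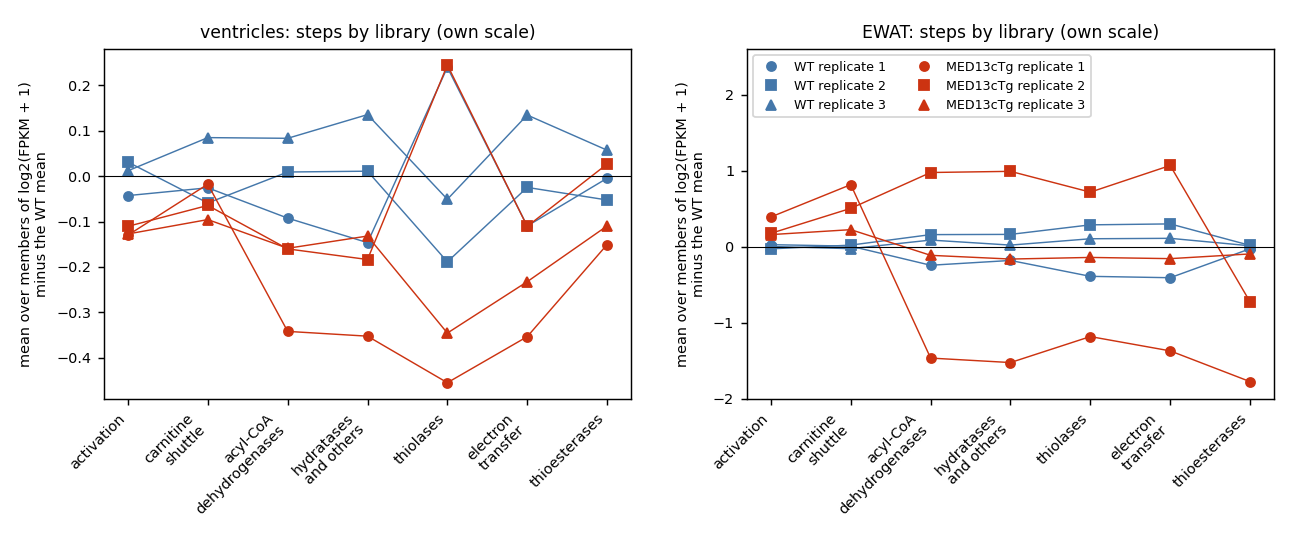
Mean over the members of each step of log2(FPKM + 1) minus the WT mean, for every library of ventricles (left) and EWAT (right), each on its own vertical scale; lines join the steps of 1 library. In ventricles the dehydrogenases are at -0.34, -0.16 and -0.16 in MED13cTg libraries, and in EWAT MED13cTg replicates 1 and 2 stand at -1.47 and 0.98 for the same step with replicate 3 near the WT libraries.

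The 40 neighbouring genes tested in EWAT gave 21 lower and 19 higher, where 49.3% of all genes were lower. None was at an adjusted or an unadjusted p under 0.05 in limma, against 0.0134% and 1.26% of all genes. The genotypes did not overlap in 2, Ppard and Gcdh, both lower in MED13cTg, as in 7.8% of all genes.

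Whether the genotype effect differed between the tissues was tested directly over 11924 genes in all 12 libraries. The 4 groups shared 1 estimate of the spread for each gene, although the MED13cTg EWAT libraries varied more than the others. For Acadm the SE was 0.20 in ventricles, 0.92 in EWAT and 0.99 for the difference. A lack of calls here therefore does not show that the effects were alike. None of the 33 members passed an adjusted p of 0.05 in limma with Benjamini-Hochberg adjustment, where 0.0252% of all genes did. At an unadjusted p under 0.05 there was 1, Acsl3, whose effect in EWAT exceeded that in ventricles by 0.85 (SE 0.24, adjusted p = 0.765), against 3.67% of all genes. Without EWAT MED13cTg replicate 3, the library nearest to WT, 4 members passed, Acsl4, Cpt1a, Crat and Acot1, where 643 of the 11927 genes then tested (5.39%) passed, and those comparisons rest on MED13cTg replicates 1 and 2 alone in EWAT.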

How the data were processed

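RNA was sequenced from both ventricles and EWAT of WT and MED13cTg mice. The authors aligned reads with TopHat to mm9 and estimated FPKM per gene with Cufflinks; tool versions are not given in the sources used here. The deposited FPKM tables, 1 per tissue, hold 23042 rows each, of which 31 carry no gene symbol and were left out. The authors' averages per genotype and their fold changes are also in the tables and were not used, nor was 1 unnamed column of values. FPKM corrects for length and depth but not for the mix of cells. The labels give 6 weeks of age and 1 μg of RNA per library, and the study's methods differ from the labels on both. The labels number the 3 libraries of a group; where nothing ties them to separate mice beyond the stated n, p-values measure the spread between these libraries.

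Genes averaging 1 FPKM or more over a tissue's 6 libraries were tested after conversion to log2(FPKM + 1) by limma (3.58.1, under R 4.3.3; lmFit, eBayes with a mean-variance trend, two-sided, Benjamini-Hochberg adjustment over all genes tested, threshold 0.05), each tissue on its own and without covariates. Fold changes on this scale understate those of low genes. The difference of genotype effects used all 12 libraries. The fit within a tissue was first tested on simulated data in which both genotypes had the spread of the WT libraries. The MED13cTg EWAT libraries were more spread, so that it does not show how the fit behaves on them. The difference of genotype effects was not simulated. Other values were computed with Python 3.11.15 and pandas 2.3.3, and plots drawn with matplotlib 3.10.9. Relative depth came from values under 0.15 FPKM. Shared 50-base windows were counted between GENCODE transcripts. Promoter windows are from RefSeq (GRCm38.p6).

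Members and lists were chosen with earlier results of these data known. All 33 members are accounted for by step. Values per library are given for members with an unadjusted p under 0.05, without overlap between genotypes, among the 3 at either end of the log2 fold changes of a tissue, or fixed by role (Acsl1, Cpt1a, Cpt1b, Cpt2, Acadvl, Acadm, Hadha, Hadhb, Acaa2, Etfdh, Acot1, Acot2). Of 44 neighbouring genes, those with an unadjusted p under 0.05 are named.

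Replicate numbers come from the sample titles. In EWAT, same-numbered WT and MED13cTg libraries deviated together from their group means (correlations 0.346, 0.307 and 0.150). Of the differently numbered pairs, WT replicate 3 and MED13cTg replicate 2 reached 0.162, and the others were negative. The numbers were taken as a possible pairing there, which no label states. With the replicate number as a block, 0 members were called in EWAT, as without it, and the count over all genes went from 2 to 0. In ventricles the numbers did not pair the libraries. Alternatives were another pseudocount (0.1), no filter or one at 5 FPKM, quantile normalization, median-of-ratios scaling, no trend, array weights, the block, a term for the ventricle library clusters, and each library left out.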

Additional observations from a re-analysis of the deposited data

How the results depend on the processing

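No member was called in ventricles or EWAT under any alternative, nor any neighbouring gene. The unadjusted counts in ventricles were less stable. With array weights, 14 members and 22 neighbouring genes were at an unadjusted p under 0.05 in limma. Without WT replicate 1 there were 10 and 11, and the other settings gave 1 to 3 members. The shares of all genes at these settings were not computed. The lowest adjusted p of any member in ventricles over the alternatives was 0.084 in limma, for Acsl6. In ventricles, 26 to 29 members were lower with each library left out in turn, against 48.5% to 56.7% of all genes. Under quantile normalization the members without overlap numbered 2 in ventricles (5 as reported) and 1 in EWAT (2 as reported). Array weights gave 12 members lower in EWAT (23 as reported) with a median log2 fold change of 0.080, and 1 member, Acsl3, whose effect differed between the tissues; the estimation of array weights stopped short of its convergence tolerance in some fits. Limiting EWAT to members with a mean of at least 100 FPKM, chosen after seeing the data, left 7 lower of 9. With each library left out in turn, members lower in EWAT ranged from 6 (without MED13cTg replicate 1) to 27, their median from -0.68 (without MED13cTg replicate 2) to 0.35, and members differing between the tissues from 0 to 4. The median was also moved by leaving out WT replicate 1, to -0.39.

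Of all 33 members, leaving out single libraries turned the sign of 7 in ventricles and 22 in EWAT, the library cluster as a term that of 2 in ventricles, Decr1 and Acot1, and leaving out both MED13cTg replicates 1 and 2 that of 8 in EWAT. Among the members chosen by the naming rule in a tissue, these changes were as follows, none past the adjusted threshold. In ventricles, Cpt1b was at 0.019 under quantile normalization and 0.13 with array weights, Cpt2 at 0.12 with array weights, and Acot1 at 0.093 with the library cluster as a term. With MED13cTg replicates 1 and 2 both left out of EWAT, Acsl4 was at 0.12, Cpt1a at 0.011, Crat at -0.067, Hadha at -0.14, Hadhb at -0.092 and Acot1 at 0.050. In EWAT, array weights gave 0.18 for Acadm and 0.044 for Etfdh, and median-of-ratios scaling 0.0061 for Etfdh. Leaving out single libraries gave ranges of -0.14 to 0.084 for Cpt1b, -0.41 to 0.12 for Acaa2 and -0.19 to 0.056 for Acot1 in ventricles, and in EWAT of -0.65 to 0.84 for Acsl1, -0.21 to 0.60 for Cpt2, -1.16 to 0.68 for Acadm, -0.29 to 0.51 for Hadhb, -1.03 to 0.063 for Acaa2, -0.57 to 0.35 for Etfdh and -0.86 to 0.12 for Acot2. The cause of these changes was not tested.

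With the replicate number as a block, 0 members were called in either tissue or differed between the tissues, as without it. Members at an unadjusted p under 0.05 went from 3 to 2 in ventricles, without Echs1, and from 1 to 3 for the difference between the tissues, where the count over all genes passing the adjusted threshold went from 3 to 2. In ventricles, same-numbered libraries had correlations of 0.083, -0.192 and 0.139 and the block took the count over all genes from 7 to 4. Depth is known only relative to WT replicate 1. MED13cTg replicates 1 and 2 of EWAT held the fewest fragments, 0.768 and 0.712 times as many, and their lowest values are the least precise.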
